A study of Homo sapiens with 16 samples.

Results

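The human genes that code for olfactory receptors and lie outside chromosome 11 were examined for peaks of 2 Polycomb proteins and their histone mark in 2 liver cell lines. Membership was set by annotation alone: RefSeq GRCh38 protein-coding genes on chromosomes 1 to 10 and 12 to 22 whose symbol is OR followed by digits, letters and digits. This gave 218 of 19974 protein-coding genes, spread over 16 chromosomes. Chromosome 1 held 61, chromosome 9 held 25, chromosome 14 held 24, chromosome 19 held 20 and chromosome 12 held 18, and the remaining 11 chromosomes held between 1 and 17 each.

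Binding was mapped by ChIP-seq, in which DNA bound by a protein or carrying a histone mark is pulled down with an antibody and sequenced. There were 4 groups of 2 replicates: JARID2 in HepG2, a liver carcinoma line, and H3K27me3, EZH2 and JARID2 in THLE-2, an immortalised line of normal liver epithelium. No group carried a genetic change or drug treatment in the labels, and all cells were fixed with formaldehyde. The series describes the replicates as biological, and each immunoprecipitated library had its own input library as the background. Every line is a single established line, so the replicates are cultures of it and the p-values below measure only the spread between these libraries. Peak lists hold no expression values, so the identity of the lines could not be checked against liver markers here.

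Olfactory receptors are G-protein-coupled receptors of the nose. Each mature olfactory sensory neuron expresses a single receptor allele, chosen from a large family whose genes sit in tandem clusters, and in that tissue the silent copies are packed in heterochromatin. In most other tissues, the liver among them, the family is largely silent. H3K27me3, trimethylation of lysine 27 on histone H3, is a mark of silenced genes. It is written by EZH2, the catalytic subunit of Polycomb repressive complex 2, and JARID2 is an accessory subunit that helps to bring this complex to DNA.

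The libraries differed in depth and in the length of their lists. Tags left after filtering ranged from 7945155 to 39047005 in the 8 immunoprecipitated libraries, and the lists held 2112 to 90524 peaks. Both H3K27me3 lists were the longest, with 46198 peaks in replicate 1 and 90524 in replicate 2. The HepG2 JARID2 lists held 15738 and 4090 peaks, and the share of all protein-coding genes with a peak differed between them more than for any other target. The median false discovery rate of a list was 100% in 5 of the 8 lists. These were HepG2 JARID2 replicate 2 and both lists of H3K27me3 and of EZH2. Every H3K27me3 or EZH2 peak counted at a receptor gene below had a false discovery rate of 100%. All lists used the same MACS p cutoff of 1e-05.

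H3K27me3 was the mark most often found at these receptor genes, while EZH2 and JARID2 peaks were few and never at the same gene in both replicates of a group. A gene was counted when a peak lay within 2 kb of either annotated gene end. For H3K27me3 in THLE-2, 25 of 218 receptor genes (11.5%) had a peak in replicate 1 and 59 (27.1%) in replicate 2, against 7.7% and 19.1% of all protein-coding genes. Both replicates had a peak at 24 receptor genes (11.01%), against 6.75% of all protein-coding genes. At each of these 24 the peaks of both replicates lay at the same gene end, which held for 6.41% of all protein-coding genes. The windows of the ends overlap in short genes, where 1 peak can count at both ends. These 24 had a median length of 1.90 kb, so agreement in the end is not read as agreement between replicates. Peaks of the replicates themselves overlapped at 22 of the 24. The share was above that of all genes in both H3K27me3 libraries with windows at the gene ends. In replicate 2 the margin was small at a MACS score of at least 100, with 15.1% of receptor genes and 14.7% of all genes. At 0.5 kb it was 17.0% and 15.4%, and with the list cut to the length of list 1, 17.0% and 15.2%. It was wider at 5 kb, with 33.9% and 25.5%, and with the summit in the window, with 24.3% and 15.6%. Over the whole gene with 2 kb on either side it was not in replicate 1, with 14.7% of receptor genes and 15.2% of all genes, nor in both replicates together, with 13.8% and 14.4% in the same order. In replicate 2 that window gave 31.2% of receptor genes and 24.9% of all genes.

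For EZH2 in THLE-2, 1 receptor gene (0.459%) had a peak in replicate 1 and 2 (0.917%) in replicate 2, against 5.92% and 6.54% of all protein-coding genes. None had it in both replicates, against 4.88% of all genes. For JARID2 in HepG2, 7 receptor genes (3.21%) had a peak in replicate 1 and 6 (2.75%) in replicate 2, against 22.5% and 0.716% of all genes. For JARID2 in THLE-2, 6 receptor genes (2.75%) had a peak in replicate 1 and 1 (0.459%) in replicate 2, against 4.21% and 4.38% of all genes. No receptor gene had JARID2 in both replicates of either line, where 0.165% of all genes did in HepG2 and 0.355% in THLE-2. The share of receptor genes was below that of all genes in both EZH2 libraries and in 3 of the 4 JARID2 libraries, and above it in HepG2 JARID2 replicate 2. Over the whole gene with 2 kb on either side, HepG2 JARID2 replicate 2 also fell below, with 2.75% of receptor genes and 6.92% of all genes.

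**Figure D1:**
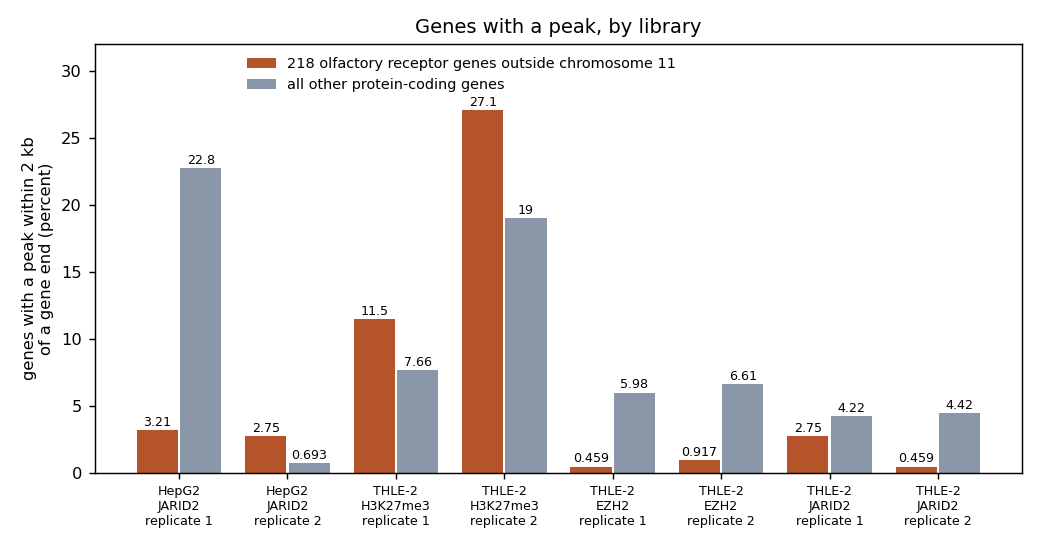
Percent of genes counted as having a peak, 2 kb around gene ends, in each of the 8 immunoprecipitated libraries, for the 218 olfactory receptor genes outside chromosome 11 and for all other protein-coding genes. Each bar is 1 library. The receptor bars exceed the others in both H3K27me3 libraries and in HepG2 JARID2 replicate 2, and are lower in the remaining 5.

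Over libraries, the mean share of receptor genes with H3K27me3 in THLE-2 was 19.3% ± 11.03 (SD, n = 2), against 0.688% ± 0.324 for EZH2 and 1.61% ± 1.62 for JARID2 in the same line. H3K27me3 exceeded EZH2 by 18.6 percentage points and JARID2 by 17.7 points, and neither pair of groups overlapped. The same held over all protein-coding genes, with 7.7% and 19.1% for H3K27me3, 5.92% and 6.54% for EZH2, and 4.21% and 4.38% for JARID2. After the share of all other genes was subtracted in each library, the differences at receptor genes were 11.5 and 8.64 points. EZH2 minus JARID2 in THLE-2 was -0.917 points, with overlapping groups. JARID2 averaged 2.98% ± 0.324 in HepG2 and 1.61% ± 1.62 in THLE-2, a difference of 1.38 points in which replicate 1 of THLE-2 equalled replicate 2 of HepG2. With 2 libraries against 2, the smallest two-sided p an exact permutation test can give is 0.333. The exact permutation p was 0.333 for H3K27me3 against EZH2 and against JARID2, 0.667 for HepG2 against THLE-2 and 1 for EZH2 against JARID2. Adjusted over these 4 comparisons by the Benjamini-Hochberg method, the p-values were 0.667, 0.667, 0.889 and 1 in that order. Measured against the share of all other genes in the same library, the HepG2 minus THLE-2 difference in JARID2 was -6.03 points, so its direction depends on the scale.

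In all, 71 receptor genes had a peak in at least 1 of the 8 libraries and 147 had none. This pooled count was not made over all protein-coding genes, so it is not read as a trait of the receptor genes. Absence from a list means that no peak was called, and does not show that the mark is missing from the gene. H3K27me3 was called in neither replicate at 158 receptor genes, in replicate 2 alone at 35 and in replicate 1 alone at 1, OR6C65. At OR6C65 that peak began inside the gene and covered its 3′ end, with a fold enrichment over input of 9.66 and 79 tags. Of the 25 receptor genes called in replicate 1, 24 were thus also called in replicate 2. Among all 19974 protein-coding genes, 1538 were called in replicate 1, 3819 in replicate 2 and 1349 in both. Most replicate 1 calls thus repeated over all genes as well.

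The receptor gene with the best rank in both H3K27me3 lists was OR4D1 on chromosome 17, which with OR4D2 forms an isolated pair. The values that rank genes here are the authors' own fold enrichments of the strongest peak within each list. OR4D1 stood at 18.35 in replicate 1, rank 382 of its list, and at 17.38 in replicate 2, rank 828. The replicate 1 peak, chr17:58147671-58154420, was 6750 bp wide with 400 tags and covered the annotated start. In replicate 2 the same stretch held 3 peaks with folds of 11.32, 8.49 and 12.29, and its strongest peak, at 17.38, lay over the far end of the gene. The peaks that ranked OR4D1 first therefore lay at opposite ends of the gene, while peaks of both replicates overlapped at the start.

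OR4D2, the neighbour of OR4D1, had 5 H3K27me3 peaks in replicate 2, the strongest with a fold of 16.17. In replicate 1 it had none within 2 kb, and the nearest peak of that list lay 8496 bp away. This pair also held both EZH2 peaks that replicate 2 of EZH2 had at receptor genes. At OR4D1 the EZH2 peak, chr17:58156311-58157603, had a fold of 8.92 and 104 tags and lay wholly inside an H3K27me3 peak of replicate 2. Its summit was in the gene body, outside the 2 kb window of the gene end. With the summit required in the window, EZH2 replicate 2 kept 1 receptor gene, OR4D2 (0.459%, against 5.71% of all genes). At OR4D2 the EZH2 peak, chr17:58166426-58167196, had a fold of 8.27 and 31 tags, and shared 735 bp with an H3K27me3 peak of replicate 2. EZH2 replicate 1 had no peak within 2 kb of either gene. The third gene with EZH2 was OR2F2 on chromosome 7, whose peak was in replicate 1 alone, with a fold of 10.48 and 30 tags, and OR2F2 had no H3K27me3 peak in either replicate.

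Promoters of these genes are shown for what lies under the peaks: the 250 bases before the annotated start, from RefSeq GRCh38.p14, read 5′ to 3′ on the gene's strand. Some genes are short in the annotation, OR2F2 with 954 bp among them. Whether the annotated starts are starts of transcription was not checked, and promoter here means only the stretch at that start. Capitals mark each CG dinucleotide and each match, on either strand, to the motif CCCNNGGG, to the motif TATAAA or to the motif TAATTA. OR4D1, OR5BS1 and OR10G3 had H3K27me3 peaks of both replicates over this stretch. OR4D2 had EZH2 and H3K27me3, each of replicate 2, over it, OR2F2 had EZH2 of replicate 1, and OR2T1, from the large chromosome 1 cluster, had no peak in any library.
OR4D1, chr17:58148134-58148383, plus strand: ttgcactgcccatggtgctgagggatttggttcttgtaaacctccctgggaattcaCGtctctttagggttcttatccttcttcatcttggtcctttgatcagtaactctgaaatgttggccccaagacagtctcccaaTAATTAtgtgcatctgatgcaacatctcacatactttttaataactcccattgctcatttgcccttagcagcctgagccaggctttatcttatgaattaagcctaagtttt
OR5BS1, chr12:48559632-48559881, plus strand: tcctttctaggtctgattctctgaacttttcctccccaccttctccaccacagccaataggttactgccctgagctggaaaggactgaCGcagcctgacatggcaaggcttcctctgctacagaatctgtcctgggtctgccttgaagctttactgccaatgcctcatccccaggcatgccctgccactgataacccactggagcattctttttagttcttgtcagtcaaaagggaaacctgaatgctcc
OR10G3, chr14:21580077-21580326, minus strand: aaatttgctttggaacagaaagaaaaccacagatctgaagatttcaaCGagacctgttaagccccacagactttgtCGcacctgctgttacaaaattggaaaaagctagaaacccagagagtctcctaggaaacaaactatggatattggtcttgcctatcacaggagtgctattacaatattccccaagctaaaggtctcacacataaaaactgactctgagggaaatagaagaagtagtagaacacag
OR4D2, chr17:58166732-58166981, plus strand: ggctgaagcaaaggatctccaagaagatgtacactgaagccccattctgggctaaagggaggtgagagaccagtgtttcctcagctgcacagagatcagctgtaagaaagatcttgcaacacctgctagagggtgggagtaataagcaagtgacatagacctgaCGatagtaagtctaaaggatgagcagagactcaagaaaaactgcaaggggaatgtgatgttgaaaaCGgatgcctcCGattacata
OR2F2, chr7:143934983-143935232, plus strand: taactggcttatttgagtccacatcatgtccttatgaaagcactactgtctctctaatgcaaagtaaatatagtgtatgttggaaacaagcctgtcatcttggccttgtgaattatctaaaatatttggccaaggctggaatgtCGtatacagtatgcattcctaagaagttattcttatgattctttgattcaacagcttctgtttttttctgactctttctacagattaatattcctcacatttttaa
OR2T1, chr1:248402798-248403047, plus strand: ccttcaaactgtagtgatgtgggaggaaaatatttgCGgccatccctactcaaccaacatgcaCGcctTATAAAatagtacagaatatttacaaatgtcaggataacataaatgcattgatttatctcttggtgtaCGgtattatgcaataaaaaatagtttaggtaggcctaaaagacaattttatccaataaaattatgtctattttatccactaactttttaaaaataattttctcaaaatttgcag
All 6 are poor in CG, with 1 to 3 such dinucleotides in 250 bases and a G+C content of 30.8% to 51.2%. OR4D1 carries 1 TAATTA and OR2T1 carries 1 TATAAA, and neither motif was in the other 4. CCCNNGGG was in none of these 6 windows.

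Most receptor promoters of the set were poor in CG. RefSeq promoters, 250 bases before to 50 after the annotated start, were matched for 176 of 218 receptor genes and for 15812 protein-coding genes in all. The median CpG observed over expected, which is the count of CG dinucleotides over that given by the C and G content, was 0.132 at receptor promoters and 0.766 at the promoters of all other protein-coding genes. At least 0.6 was reached by 5 receptor promoters (2.84%), against 66.5% of the other promoters. Median G+C content was 38.3% at receptor promoters and 63.0% at the others. TATAAA, a core promoter element, was in 34.7% of receptor promoters and 9.64% of all promoters. TAATTA, a homeodomain core of the kind that LHX2 binds, was in 21.6% of receptor promoters and 3.35% of all promoters. CCCNNGGG, a core read by EBF factors, was in 7.95% of receptor promoters and 21.7% of all promoters. TATAAA and TAATTA hold only A and T, and the fixed bases of CCCNNGGG are C and G. The motif shares therefore cannot be told apart from the difference in G+C content, and binding of these factors was not tested. Matches to different motifs overlapped in none of the receptor promoters.

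**Figure D2:**
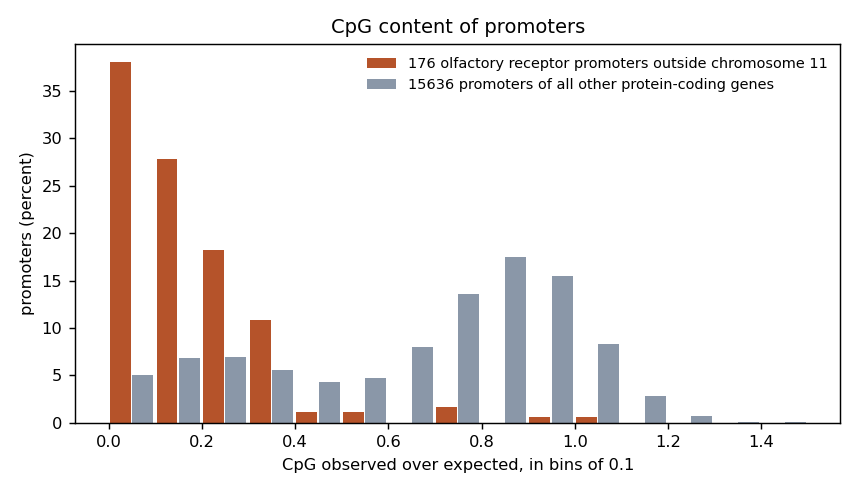
CpG observed over expected in promoters (horizontal axis, bins of 0.1, the last bin holding all higher values) as percent of promoters, for 176 olfactory receptor promoters outside chromosome 11 and 15636 promoters of all other protein-coding genes. Receptor promoters pile up at the low end, with a median of 0.132, against 0.766 for the others.

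Receptor promoters were low in CpG with or without the mark. The 21 matched promoters of genes with H3K27me3 in both replicates had a median CpG observed over expected of 0.109 and a median G+C content of 41.0%. The 126 without H3K27me3, or with it in replicate 1 alone, had 0.135 and 37.5%. None of the 21, and 5 of the 126, reached 0.6. At 13 of the 176 matched genes (7.39%) the promoter itself overlapped an H3K27me3 peak in both replicates, against 2.13% of the 15812 matched promoters of all protein-coding genes.

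After OR4D1, the receptor genes with the best ranks in both H3K27me3 lists were OR5BS1 on chromosome 12, with folds of 13.52 in replicate 1 and 16.17 in replicate 2, and OR1J1 on chromosome 9, with 13.04 and 14.95. At OR5BS1, 3 peaks of replicate 1 and 4 of replicate 2 ran across the gene and both flanks. OR5AU1 had 12.07 and 15.12, and OR10G3 had 14.48 and 10.91, both on chromosome 14. OR1N2 on chromosome 9 had 11.10 and 12.93, OR6S1 on chromosome 14 had 13.04 and 10.10, and OR10T2 on chromosome 1 had 10.14 and 13.34. OR4E2 on chromosome 14 followed with 10.14 and 11.72. OR4D1 and these 8 genes lie on 5 chromosomes.

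The remaining 15 genes with H3K27me3 in both replicates ranked lower. OR1N1 had folds of 11.59 and 9.01, OR6C3 had 14 and 8.43, and OR1G1, a broadly tuned odorant receptor, had 9.17 and 14.55. OR1I1 had 12.07 in replicate 1 and 4.65 in replicate 2, which were ranks 6853 and 86906 in their lists. OR1D2, a receptor for the floral odorant bourgeonal, had 6.76 and 9.70, and its peaks lay at the same end without overlapping. OR1L3 was the other gene of the 24 whose peaks did not overlap, with 7.72 and 6.87. OR10A7, OR4E1, OR6K2, OR2B11, OR2V1, OR11H6, OR1L6, OR2V2 and OR6B2 completed the list, and OR6B2 ranked last with 6.21 and 4.65. The order of the folds in one replicate was thus not that in the other.

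**Figure D3:**
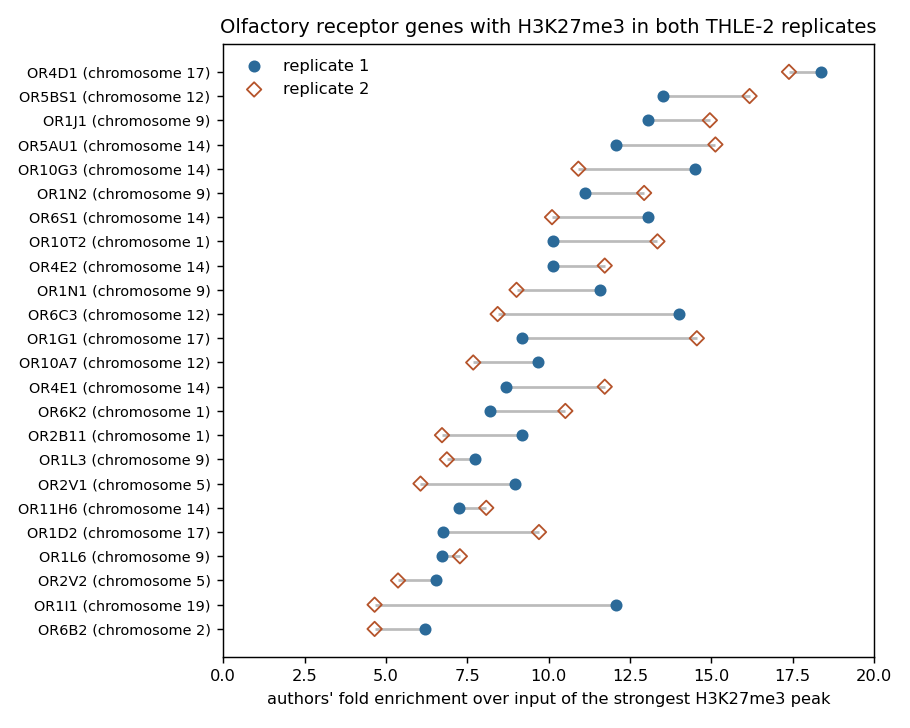
Authors' fold enrichment over input (horizontal axis) of the strongest H3K27me3 peak at each of the 24 receptor genes with a peak in both THLE-2 replicates, ordered by the worse of their ranks in the lists. Filled circles are replicate 1 and open diamonds replicate 2. OR4D1 stands highest in both, at 18.35 and 17.38, and OR6B2 ranks last, at 6.21 and 4.65.

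H3K27me3 peaks at receptor genes were close to the median of their list in width, and narrower than peaks at other genes. In replicate 2 the 94 peaks at receptor genes had a median width of 1031 bp and 57.5 tags, against 2358 bp and 195 tags for the 5429 peaks at other genes and 1117 bp and 58 tags over the whole list. In replicate 1 the 41 peaks at receptor genes had a median width of 1486 bp and 70 tags, against 1888 bp and 92 tags at other genes and 1494 bp and 66 tags over the whole list. Their median fold was 8.49 at receptor genes and 7.27 at other genes in replicate 2, and 9.17 and 9.66 in replicate 1. Members differed in the way the calls repeated. Where both replicates had a peak, the strongest replicate 2 peak had a median fold of 9.90 and 71.5 tags, and at the 35 genes of replicate 2 alone 8.64 and 41 tags. At those 35 genes the nearest replicate 1 peak lay a median of 16.8 kb away, and within 5 kb at 7 of them. OR4D2 stood highest of the 35, at 16.17, followed by OR6K3 on chromosome 1 at 12.93.

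Genes with the mark in both replicates were short in the annotation, with a median length of 1.90 kb, against 6.98 kb for those of replicate 2 alone and 5.17 kb for the rest. The nearest protein-coding gene that is no olfactory receptor lay a median of 56.1 kb from genes with the mark in both replicates, 44.7 kb from those of replicate 2 alone and 93.1 kb from the rest. The 43 pairs of a receptor gene and a replicate 1 peak included 17 at the 5′ end alone, 7 at the 3′ end alone, 14 at both ends and 5 at genes whose strand was not matched. The 96 such pairs of replicate 2 included 29, 24, 31 and 12 in the same order. An end here means its 2 kb window, and the windows of short genes overlap.

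Receptor genes were joined into clusters where neighbours on a chromosome lay at most 1 Mb apart. This gave 31 clusters, of which 15 held at least 3 genes and 195 genes in all, 7 were pairs and 9 single genes. Genes with H3K27me3 in both replicates lay in 11 of the 31 clusters and in 9 of the 15 large ones. In 13 of the 15 large clusters replicate 2 had more receptor genes with a peak than replicate 1, and in the other 2 neither replicate had any. Members of a cluster share a region and are not independent, so clusters are compared by their counts.

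**Figure D4:**
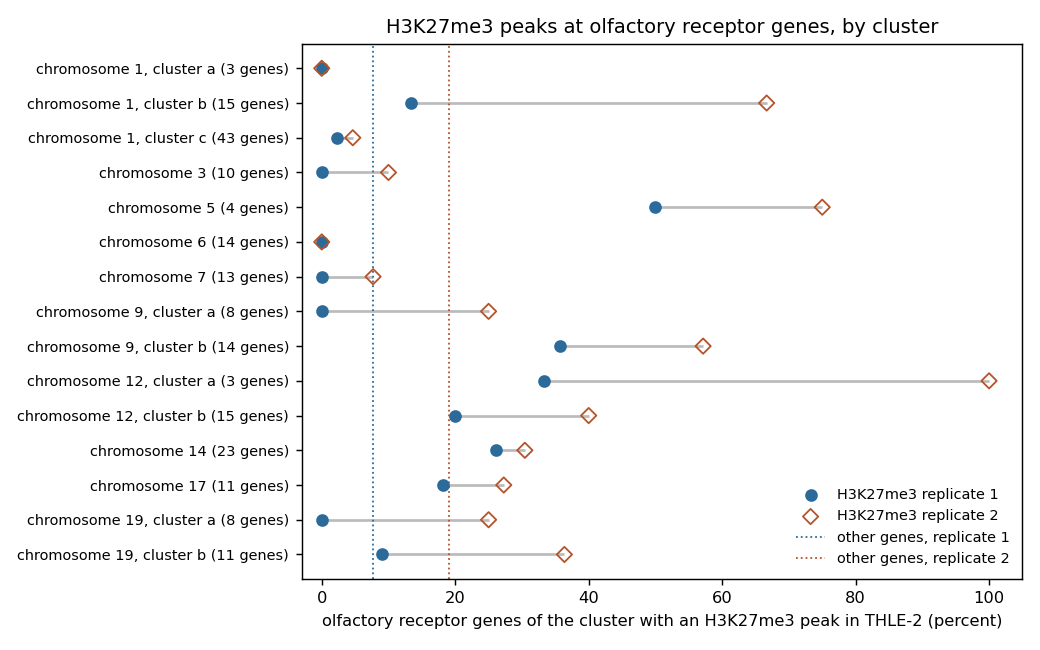
Percent of the olfactory receptor genes of each of the 15 clusters of at least 3 genes that had an H3K27me3 peak within 2 kb in THLE-2 (horizontal axis), in replicate 1 (filled circles) and replicate 2 (open diamonds). Dotted lines give the percent of other protein-coding genes in each replicate, 7.66 and 19.0. Clusters are lettered in order along their chromosome, and the chromosome 6 cluster and the first of chromosome 1 stand at 0 in both replicates.

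The chromosome 9 cluster of 14 genes, at chr9:122447433-122801073 and almost wholly of family OR1, was the large cluster with most genes marked in both replicates after that of chromosome 14. H3K27me3 was called at 5 of its genes (35.7%) in replicate 1 and at 8 (57.1%) in replicate 2. The 5 shared genes were OR1J1, OR1N1, OR1N2, OR1L3 and OR1L6. Of the genes between them, OR1J4, OR1Q1 and OR1L1 had H3K27me3 in replicate 2 alone, with folds of 11.72, 8.49 and 8.08, and OR1L8, OR1B1 and OR1L4 had none within 2 kb of a gene end. Peaks covered 9.72% of the span in replicate 1 and 11.03% in replicate 2, against 3.18% and 5.26% of the autosomes. In the 1 Mb on either side, 7.05% and 11.4% was covered. The smaller chromosome 9 cluster of 8 genes, which includes OR13C5, had no gene marked in replicate 1 and 2 marked in replicate 2.

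The chromosome 14 cluster held 23 genes over 2931 kb, with 6 (26.1%) marked in replicate 1, 7 (30.4%) in replicate 2 and 6 in both. The mark was at one side of it. None of the 13 genes from OR11H2 to OR4N5, mostly of family OR4, had an H3K27me3 peak in either replicate within 2 kb of its ends, while 6 of the 10 genes from OR11G2 to OR6J1 had one in both. That division was chosen after the values were seen. The 6 genes were OR11H6, OR6S1, OR5AU1, OR10G3, OR4E2 and OR4E1. Peaks of OR4E2 and OR4E1 are in part the same peaks, since the genes lie side by side.

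The 2 clusters of chromosome 1 with most genes differed from each other. The cluster of 15 genes at chr1:158398522-159536007 had 2 (13.3%) marked in replicate 1 and 10 (66.7%) in replicate 2, and OR10T2 and OR6K2 were marked in both. The cluster of 43 genes at chr1:247449118-248702766, the largest of the set, had 1 (2.33%) in replicate 1 and 2 (4.65%) in replicate 2. Both were at its first 2 genes. OR2B11, the first, had H3K27me3 in both replicates with folds of 9.17 and 6.72, and OR2C3, the next, in replicate 2 alone. None of the following 41 genes, the OR2T, OR2L and OR2M receptors among them, had an H3K27me3 peak within 2 kb of a gene end. Peaks covered 0.302% of this span in replicate 1 and 1.05% in replicate 2, and 0.974% and 2.28% of the 1 Mb on either side. All 8 libraries together had 21 peaks in its 1254 kb.

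The chromosome 6 cluster of 14 genes, at chr6:29044213-29590500 beside the major histocompatibility complex, had no peak of any of the 8 libraries in its 546 kb. The 1 Mb on either side held 25 H3K27me3 peaks in replicate 1 and 46 in replicate 2. OR2J3, a receptor for the grassy odorant cis-3-hexen-1-ol, and the broadly tuned OR2W1 lie in this cluster. The 3 genes at the end of chromosome 1 also had no peak of any library in the 655 kb they span. Only uniquely mapped reads were used, and the lists hold 5 to 53 peaks each on unplaced or alternate scaffolds. How far unique mapping limits these regions was not tested.

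**Figure D5:**
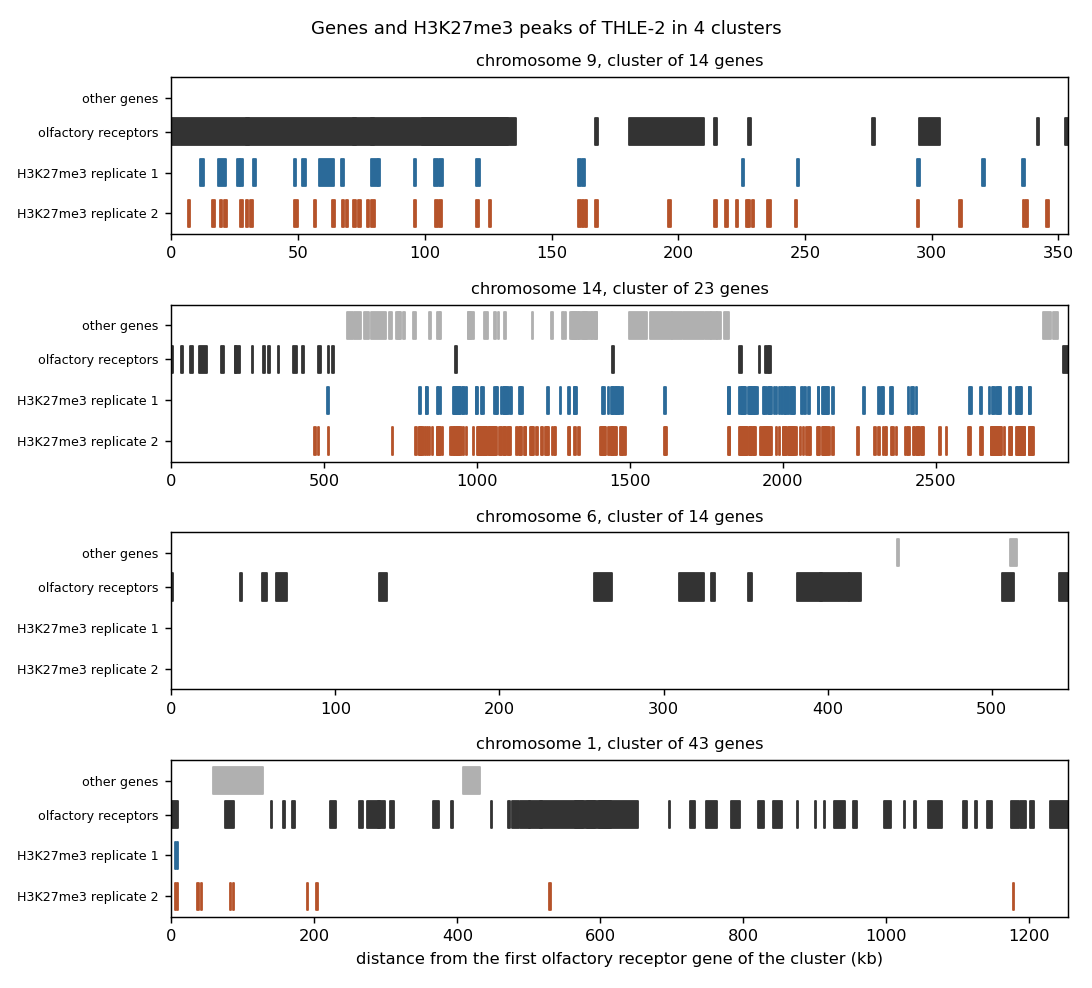
Protein-coding genes and H3K27me3 peaks of both THLE-2 replicates in 4 clusters, by distance in kb from the first olfactory receptor gene. Black bars are olfactory receptor genes, grey bars other genes, blue bars replicate 1 peaks and orange bars replicate 2 peaks, and genes that overlap merge into 1 bar. Peaks run through the chromosome 9 cluster, lie mainly past the first run of genes in the chromosome 14 cluster, are absent from the chromosome 6 cluster and are few in the chromosome 1 cluster of 43 genes.

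In the remaining large clusters, counts were small. On chromosome 12, the cluster of 15 genes had 3 marked in replicate 1, 6 in replicate 2 and 2 in both, OR10A7 and OR6C3. The 3-gene cluster of that chromosome, with OR5BS1, had 1 and 3, and 14.2% and 15.9% of its span was covered. On chromosome 5, 2 of 4 genes were marked in replicate 1 (50%), 3 in replicate 2 (75%) and 2 in both, OR2V1 and OR2V2. These shares were above those of the chromosome 9 cluster of 14 genes, on a base of 4 genes. On chromosome 17, OR1D2 and OR1G1 were 2 of 11 genes marked in both, while OR1A1 of the same cluster, which has been studied in hepatocytes, had no peak in any library. On chromosome 19, OR1I1 was marked in both replicates among 11 genes. Among the 8 genes of the other chromosome 19 cluster, 2 were marked in replicate 2 alone, OR7E24 and OR7D4, a receptor for androstenone. Both were called from 1 shared peak of 660 bp with a fold of 8.87, the only H3K27me3 peak of that replicate in the span. Its summit lay 2036 bp outside OR7D4. OR1A1, OR7D4, OR2J3 and OR2W1 were picked after their values were seen, for their known ligands or tissue. On chromosomes 3 and 7, 1 of 10 and 1 of 13 genes were marked, in replicate 2 alone.

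First and last genes of the 15 large clusters were compared with the genes between them. Among the 30 at the edges, H3K27me3 was at 3 (10.0%) in replicate 1, 10 (33.3%) in replicate 2 and 3 in both. Among the 165 inside, it was at 20 (12.1%), 42 (25.5%) and 19 (11.5%). The edge genes were thus marked less often in replicate 1 and more often in replicate 2, and these differences were not tested.

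Protein-coding genes of other families also lie inside these clusters. H3K27me3 was in both replicates at 22 of the 195 receptor genes (11.3%) and at 13 of the 122 other genes (10.7%). At BTNL3, BTNL9 and C12orf54, among those 13, the peaks of the replicates lay at opposite gene ends. At the receptor genes they lay at the same end, so these shares do not compare like calls. The same-end share of the other genes was not computed. In replicate 1 the shares were 11.8% of receptor genes and 11.5% of other genes, and in replicate 2 they were 26.7% and 25.4%. Olfactory receptor genes on chromosome 11, where the family has its largest cluster set, had the mark in both replicates at 26 of 171 (15.2%). Olfactory receptor pseudogenes outside chromosome 11 had it at 26 of 259 (10.0%), against 24 of 218 (11.01%) for the coding genes.

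By receptor family, family OR1 held 8 of the 24 genes, from 25 members (32%). Family OR6 had 4 of 25 (16.0%), OR10 3 of 19 (15.8%), OR5 2 of 14 (14.3%), OR11 1 of 8 (12.5%) and OR4 3 of 26 (11.5%). The largest family, OR2, had 3 of 63 (4.76%), and OR7 and OR13, with 11 members each, and OR14, with 7, had none. Families follow clusters, so the share of a family and of its region cannot be told apart. The chromosome 9 cluster holds 5 of the 8 OR1 genes.

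JARID2 and EZH2 peaks were at 22 receptor genes in all, 19 with JARID2 and 3 with EZH2, and only OR6N1 had them in more than 1 library. Shares of all protein-coding genes were computed for each library, as given above, and not for this pooled count. At OR6N1 on chromosome 1, HepG2 JARID2 replicate 2 had a peak at chr1:158839129-158839987 with a fold of 6.62 and 22 tags. THLE-2 JARID2 replicate 1 had one at chr1:158839350-158839943 with a fold of 6.92 and 12 tags. The THLE-2 peak lay wholly within the HepG2 one, at the 5′ end of the gene as annotated, with a length of 76161 bp. This place also lies inside MNDA, a gene of another family at chr1:158831351-158849502. The matched promoter of OR6N1 is elsewhere, at chr1:158772146-158772445. Both were low in their lists, at rank 3898 of 4090 in HepG2 and 4706 of 5356 in THLE-2. The other replicate of each line had none, so this is 1 library in each line.

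In HepG2 JARID2 replicate 1, peaks lay at OR6K6, OR2G3, OR2V1, OR2V2 and OR7A10, and 1 peak with a fold of 10.84 was shared by OR3A2 and OR1R1. Their folds ran from 6.32 at OR2V2 to 11.95 at OR6K6. In HepG2 JARID2 replicate 2, peaks lay at OR6P1, OR6N1, OR14I1, OR1L1, OR1L4 and OR6C70, with the best fold of 11.34 at OR6C70. The lists of genes of the 2 HepG2 replicates had no gene in common. Every one of these replicate 2 peaks had a false discovery rate of 100%, and every replicate 1 peak one of at most 2.56%. The H3K27me3 and EZH2 peaks at receptor genes had 100% as well.

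In THLE-2 JARID2 replicate 1, peaks lay at OR6N1, OR14A16, OR13C5 and OR10G3, and 1 peak was shared by OR4K1 and OR4K5. OR13C5 on chromosome 9 had the best rank of any of these genes, 88 of 5356, with a fold of 12.69 and 14 tags. OR10G3 had a fold of 11.53 and 13 tags at its 3′ end. Replicate 2 had a peak at OR2AE1 alone, with a fold of 8.47 and 17 tags. OR13C5 and OR10G3 had no JARID2 peak in replicate 2.

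The 24 pairs of a receptor gene and a JARID2 or EZH2 peak came from 22 peaks, with folds from 6.32 to 12.69 and 9 to 104 tags. Of these 22 peaks, 1 overlapped an H3K27me3 peak of replicate 1, 5 overlapped one of replicate 2, and 17 overlapped neither. By list, no H3K27me3 peak overlapped 5 of 6 such peaks in HepG2 JARID2 replicate 1 and 7 of 7 in replicate 2, against 87.2% and 94.7% of all peaks of those lists. It was 4 of 5 in THLE-2 JARID2 replicate 1 and 0 of 1 in replicate 2, against 86.7% and 89.6%. For EZH2 it was 1 of 1 in replicate 1 and 0 of 2 in replicate 2, against 32.1% and 48.0%. With at most 7 such peaks in a list, these counts show no trait of the receptor genes. The 1 of replicate 1 was at OR10G3, where the JARID2 peak, chr14:21570123-21570670, lay inside H3K27me3 peaks of both replicates. The others were at OR4D1, OR4D2, OR2AE1, where 17 bp were shared, and OR7A10. At OR7A10 the JARID2 peak came from HepG2 and the H3K27me3 peak from THLE-2, so the marks were read in different lines. Of the 22 genes, 11 had H3K27me3 within 2 kb in at least 1 replicate. The same share was not computed for all protein-coding genes with such peaks, so it shows no trait of the receptor genes.

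Of 20 genes of the olfactory pathway other than the receptors, 3 had H3K27me3 in both replicates (15.0%) and 3 had EZH2 in both (15.0%), against 6.75% and 4.88% of all protein-coding genes. H3K27me3 was at RTP2, a chaperone that carries receptors to the cell surface, at EBF1, a transcription factor of olfactory neurons and B cells, and at CNGA4, a subunit of the olfactory cyclic-nucleotide channel. EZH2 was at GNAL, the G-protein subunit that couples the receptors, at SLC24A4, a sodium and calcium exchanger of these neurons, and at LHX2, the homeodomain factor needed for receptor choice. At LHX2 the EZH2 peaks were 18824 bp wide with a fold of 13.27 in replicate 1 and 17268 bp wide with a fold of 8.35 in replicate 2. No H3K27me3 was counted at LHX2 in either replicate. SLC24A4 had EZH2 peaks of 4277 and 4037 bp and GNAL of 1938 and 1913 bp, in replicates 1 and 2. No EZH2 peak at a receptor gene exceeded 1293 bp. In replicate 2 the receptor peaks were 1293 and 771 bp wide, on either side of the list median of 1032 bp. In replicate 1 the peak at OR2F2 was 806 bp wide, below the list median of 3012 bp. No pathway gene had JARID2 in both replicates of either line. HepG2 JARID2 replicate 1 had a peak at 6 of the 20 (30.0%), against 22.5% of all genes, and replicate 2 at none.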

How the data were processed

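Each of the 8 immunoprecipitated libraries has 1 deposited peak list, called against its own input, per the file headers. Adapter trimming with cutadapt, alignment with Bowtie2 to GRCh38 and peak calling with MACS 1.4.2 are named, without parameters, in the submitters' processing notes. Per the file headers, MACS used uniquely mapped reads, at most 1 tag per position and a p cutoff of 1e-05. The authors deposited, for each peak, its tag count, its fold enrichment as a ratio over local input, its false discovery rate in percent and a score, which is the log10 of its p-value multiplied by -10. Fold enrichment is the authors' value and ranks peaks within a list; the values of both replicates are printed side by side, and their levels are not compared between lists.

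A receptor gene was counted where at least 1 bp of a peak lay within 2 kb of either gene end in the RefSeq GRCh38 annotation. Neighbouring genes can share a peak. Shares were compared between groups by exact permutation over libraries (Python 3.11.15, SciPy 1.17.1, pandas 2.3.3), with the libraries as replicates and no test over genes. Code was tested on simulated data. Named genes are those with H3K27me3 at the same end in both replicates, up to 20 by the worse of the ranks, and all others of the 24, those with JARID2 or EZH2, and the best of each large cluster. The members and lists were chosen with earlier results of these data known. Alternatives were other windows, a MACS score of at least 100, the summit in the window, single replicates and other cluster gaps. Intervals are not given, since the lists hold no counts outside peaks.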

Additional observations from a re-analysis of the deposited data

How the results depend on the processing

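H3K27me3 in both replicates at 24 receptor genes (11.01%, against 6.75% of all genes) became 15 with a window of 0.5 kb (6.88%, against 4.31%), 35 at 5 kb (16.1%, against 11.3%), 12 with a MACS score of at least 100 (5.50%, against 3.805%), 21 with the summit in the window (9.63%, against 4.85%) and 30 over the whole gene, where it fell below all genes (13.8%, against 14.4%). It was 20 (9.17%, against 5.93%) with replicate 2 cut to the length of list 1 (46173 peaks, chosen after seeing the data). Replicate 2 alone gave 59 genes and replicate 1 alone 25, so the range over single replicates was 25 to 59, and that of the clusters concerned 11 to 18, against 11. Single replicates gave 6 to 7 genes for HepG2 JARID2, 1 to 2 for EZH2 and 1 to 6 for THLE-2 JARID2, against 0 in both, and 0 held for the other 7 settings of each. EZH2 minus JARID2 in THLE-2, -0.917 points, became 0 at 0.5 kb and 0.229 at a score of at least 100, and ran from -2.29 to 0.459 without single libraries or replicate numbers. Without THLE-2 JARID2 replicate 1 it was 0.229. HepG2 minus THLE-2 in JARID2 was -6.03 points relative to other genes. H3K27me3 minus EZH2 and H3K27me3 minus JARID2 kept their sign in all 15 alternatives each, from 10.8 to 26.4 and from 8.64 to 26.6 points. The cause of these shifts was not tested. Replicate numbers mark no shared culture in the labels. With the replicate block, which leaves the differences at 1.38, 18.6, 17.7 and -0.917 points, the exact sign-flip p was 0.5, 0.5, 0.5 and 1. With 2 replicate numbers as blocks, 0.5 is the smallest p that this test can give, so it cannot decide these differences. The effect of depth was not tested.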

Other observations

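Other chemoreceptor families were also counted. H3K27me3 was in both THLE-2 replicates at 4 of 28 taste receptor genes of the TAS1R and TAS2R families (14.3%), at 1 of 6 trace amine receptor genes (16.7%) and at none of 3 VN1R pheromone receptor genes, against 6.75% of all protein-coding genes. At TAS1R2, among these taste receptor genes, the peaks of the replicates lay at opposite gene ends. The bitter taste receptor gene TAS2R40, on chromosome 7, stood at folds of 14 in replicate 1 and 17.38 in replicate 2, and TAS2R60, on the same chromosome, at 12.85 and 14.14. TAS2R40 and TAS2R60 lie inside the chromosome 7 olfactory receptor cluster, in which 1 of 13 olfactory receptor genes was marked, in replicate 2 alone. TAAR9 had folds of 9.66 and 13.08. No EZH2 peak lay at any gene of these families, and the 1 JARID2 peak, at TAAR5, was in THLE-2 replicate 1 alone with a fold of 7.96.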
